A study of Mus musculus with 8 samples.

Results

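The genes that make, store and release latent TGF-β were examined in iTreg sorted by surface Nrp-1. The members were named by function, with earlier results of these data known: the ligands Tgfb1, Tgfb2 and Tgfb3, the anchors Lrrc32 and Ltbp3, the integrin subunits Itgav and Itgb8, the protease Furin and the matrix protein gene Thbs1. All 9 were found among the 23361 gene symbols of the FPKM table. FPKM is a fragment count scaled to the length of the transcript and to the size of the library.

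iTreg are regulatory T cells induced in culture. Naive CD4+ T cells were flow-sorted from wild-type Foxp3-RFP reporter mice, which report Foxp3 by red fluorescence, and received CD3/CD28 beads at 1 bead per 5 cells, IL-2 at 50 U/ml and TGF-β at 2 ng/ml for 3 days according to the labels. Another label gives day 5. Viable CD4+ Foxp3-RFP+ cells were then divided by surface Nrp-1 into Nrp-1+ iTreg (Nrp-1+ cells here, 4 libraries) and Nrp-1- iTreg (Nrp-1- cells, 4 libraries), labelled as biological replicates 1 to 4. Both groups had thus been exposed to added TGF-β, and both came from the same kind of culture. Whether the replicates came from separate mice or cultures is not stated, so p-values measure the spread between these libraries.

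TGF-β is made as a pro-protein. Furin, a convertase of the Golgi, cuts the mature cytokine from its latency peptide, but both stay bound and the cytokine cannot reach its receptor. On Treg, GARP (the product of Lrrc32) anchors this latent complex at the cell surface, whereas LTBP proteins tether it to the matrix. Integrins that contain the αv chain (Itgav), above all αvβ8, pull on the latency peptide and set the cytokine free, and thrombospondin 1 (Thbs1) can activate it without an integrin. The transcript data bear on the supply of these parts and not on active TGF-β protein.

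In the submitters' notes the genome build is GRCm38 (mm10). In the GENCODE annotation of that build Tgfb1 lies on chromosome 7 at 25687002-25705077 on the plus strand, Lrrc32 on chromosome 7 at 98489283-98502181 on the plus strand, Furin on chromosome 7 at 80388585-80405436 on the minus strand and Itgav on chromosome 2 at 83724397-83806916 on the plus strand. Thbs1 lies on chromosome 2 at 118111876-118127133 and Ltbp3 on chromosome 19 at 5740904-5758532, both on the plus strand. Tgfb2 lies on chromosome 1 at 186622792-186705989, Tgfb3 on chromosome 12 at 86056745-86079041 and Itgb8 on chromosome 12 at 119158022-119238802, all on the minus strand. The 250 bases before the transcript start of Tgfb1 (RefSeq, GRCm38.p6, chr7:25686752-25687001, plus strand, no exon of another gene) are shown because Tgfb1 was by far the most abundant member. GC boxes (GGGCGG, searched on both strands) are in capitals.

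Tgfb1 promoter: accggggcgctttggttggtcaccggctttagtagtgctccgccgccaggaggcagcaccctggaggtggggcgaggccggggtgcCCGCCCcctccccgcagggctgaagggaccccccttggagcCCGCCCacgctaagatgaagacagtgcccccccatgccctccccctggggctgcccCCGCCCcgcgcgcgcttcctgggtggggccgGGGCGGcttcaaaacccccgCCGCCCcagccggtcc

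This window held 5 GC boxes and was 75.2% G or C. Of 32851 promoter windows of the same length, 32.7% held at least 1 GC box and 1.93% held 5 or more. The AP-1 motif TGANTCA, the CRE motif TGACGTCA and the forkhead motif TGTTTAC were not in the window, and 6.75%, 1.55% and 3.17% of all windows held them.

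Of the 9 members, 4 had a mean of 1 FPKM or more over the 8 libraries and entered the test: Tgfb1, Lrrc32, Furin and Itgav. Tgfb1 and Lrrc32 were higher in Nrp-1+ cells with an adjusted p under 0.05, and no tested member was lower. Among all 10467 tested genes, 20.9% were higher and 20.0% lower by the same rule (40.9% in either direction), so 2 calls among 4 genes stand against a high background. Both of them, and neither of the others that passed the filter, had groups that did not overlap, as did 39.5% of the tested genes (20.2% with all libraries higher in Nrp-1+ cells). The other 5 members had a mean under 1 FPKM in both groups, and 0 of them had an adjusted p under 0.05 in a fit of all 16289 genes above 0. In that fit 5.77% of the 5822 genes under the filter did, and 25.8% of all genes. Of the 5, Thbs1 had an unadjusted p under 0.05 (0.0314). The test was limma on log2(FPKM + 1) with Benjamini-Hochberg adjustment over all tested genes. For low genes this scale gives smaller changes than the FPKM ratio does.

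Nrp1 itself, the gene of the sorted protein, averaged 21.5 ± 0.709 FPKM in Nrp-1+ cells and 4.95 ± 0.262 FPKM in Nrp-1- cells (SD, n = 4 each). The relative depth of the libraries, read from the steps between values of low genes, ranged from 0.81 to 1.24. Short RNA genes took up from 1.81% to 44.0% of all FPKM in a library, with the high and the low shares in both groups. The 6 T cell and Treg markers, Foxp3 among them, were all above the filter. Of the dividing cell genes 6 of 6 were higher in Nrp-1+ cells (Top2a, 346.2 against 173.2 FPKM, log2 fold change 1.00, adjusted p = 1.84e-07 by limma), with a summed level of 1074.5 to 1113.9 FPKM against 611.5 to 627.5 FPKM. In bulk RNA, fewer cells of a kind and less RNA per cell cannot be told apart. The part of the dividing cell genes' difference in the other results was not tested.

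**Figure D1:**
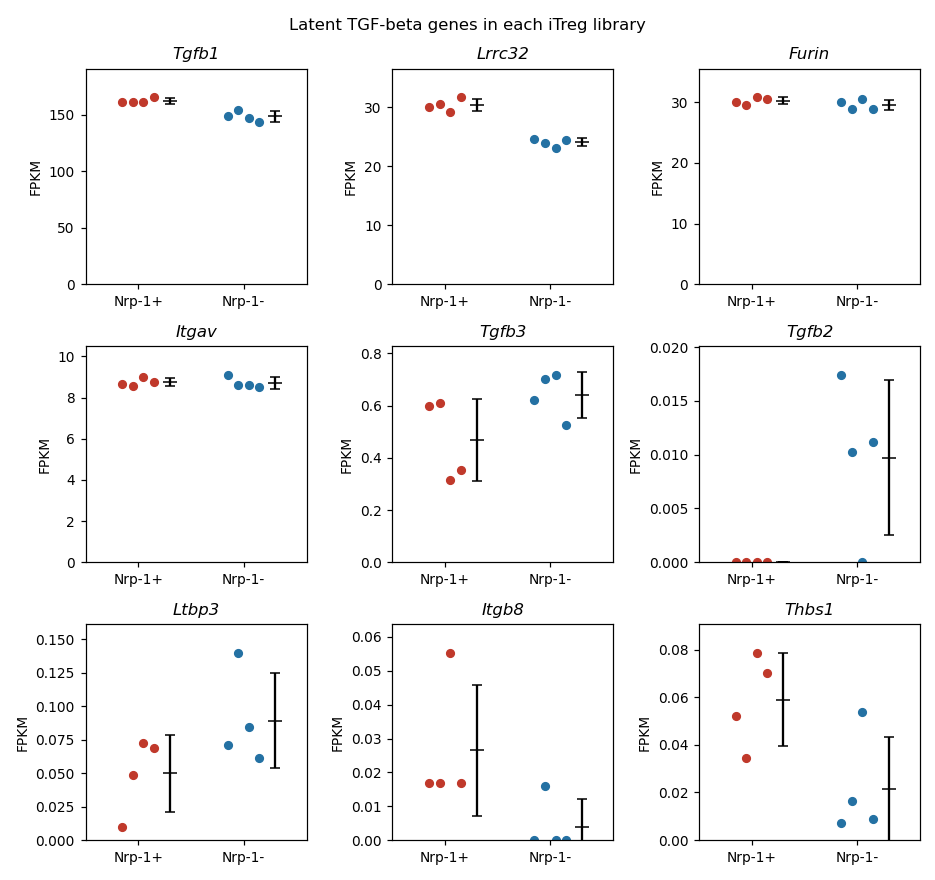
FPKM of the 9 members in each of the 4 Nrp-1+ (red) and 4 Nrp-1- (blue) libraries, in the order of replicates 1 to 4, with the mean and SD in black (cut at 0). The axes start at 0 and differ between panels. Tgfb1 and Lrrc32 do not overlap between the groups, Furin and Itgav do, and the other 5 members lie under 1 FPKM.

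The ligands were represented almost entirely by Tgfb1. In Nrp-1+ cells the 4 libraries were at 160.8, 160.8, 161.5 and 165.9 FPKM, and in Nrp-1- cells at 148.4, 154.5, 146.9 and 143.7 FPKM. Every Nrp-1+ library lay above every Nrp-1- library. The means were 162.2 ± 2.45 and 148.4 ± 4.51 FPKM (SD, n = 4 each), an increase of 9.33% (log2 fold change 0.13 with a standard error of 0.03, adjusted p = 0.00480 by limma). The exact two-sided permutation p was 0.0286, the smallest that 4 libraries against 4 allow. Tgfb1 had a higher mean than 94.3% of the tested genes, yet by size of increase it ranked 1984 among the 2189 genes higher in Nrp-1+ cells. After quantile normalization Tgfb1 had an adjusted p of 0.0620, and with a replicate block plus correction for GC and length it was 0.0723, so the call depended on the processing.

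Tgfb3, which encodes another isoform of the cytokine, was at 0.597, 0.61, 0.315 and 0.354 FPKM in Nrp-1+ cells and at 0.62, 0.702, 0.719 and 0.526 FPKM in Nrp-1- cells. The groups overlapped, since replicates 1 and 2 of Nrp-1+ cells lay among the Nrp-1- libraries and replicates 3 and 4 below all of them. The mean differed by -26.9% in Nrp-1+ cells, with a change of -0.16 on the log2(FPKM + 1) scale (standard error 0.08, adjusted p = 0.183 by limma over all genes above 0; exact permutation p = 0.114). These values rest on about 22 to 48 fragments per library by transcript length, for which counting alone gives a coefficient of variation of about 17%. The group coefficients of variation were 33.3% and 13.8%.

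Tgfb2 was listed at 0 in all 4 Nrp-1+ libraries and in replicate 3 of Nrp-1- cells. In the other 3 Nrp-1- libraries it was at 0.0174, 0.0103 and 0.0112 FPKM, which are 2, 1 and 1 steps of the smallest value and thus about as many fragments. No fold is given, because both groups stayed under 3 fragments in every library. A difference in Tgfb2 was not detectable at this depth (exact permutation p = 0.143). Of the summed FPKM of the 3 ligands, Tgfb1 made up 99.7% ± 0.0986 (SD, n = 4) in Nrp-1+ cells and 99.6% ± 0.049 (SD, n = 4) in Nrp-1- cells, with overlapping groups (exact permutation p = 0.0571).

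Lrrc32, the gene of the surface anchor GARP, showed the largest change of the tested members. The Nrp-1+ libraries were at 30.0, 30.5, 29.2 and 31.8 FPKM and the Nrp-1- libraries at 24.7, 24.0, 23.1 and 24.4 FPKM. The gap between the groups was wider than the whole range within either group. The means were 30.4 ± 1.07 and 24.0 ± 0.706 FPKM (SD, n = 4 each), an increase of 26.4% (log2 fold change 0.33 with a standard error of 0.03, 95% interval 0.25 to 0.40, adjusted p = 0.000109 by limma). By size of increase Lrrc32 ranked 975 among the 2189 higher genes. Leaving out any 1 library gave log2 fold changes of 0.30 to 0.34, and under all 19 alternatives that give one the adjusted p stayed at or below 0.00181.

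The anchor rose more than its cargo. Within a library the ratio of Lrrc32 to Tgfb1 FPKM was 0.187 ± 0.00468 (SD, n = 4) in Nrp-1+ cells, with a range of 0.181 to 0.191, and 0.162 ± 0.00705 (SD, n = 4) in Nrp-1- cells, with a range of 0.155 to 0.17. The groups did not overlap (exact permutation p = 0.0286), and the mean ratio was 15.5% higher in Nrp-1+ cells. In both groups Tgfb1 stayed several times more abundant per length, at 5.35 and 6.18 times Lrrc32. Foxp3, the lineage factor of Treg, was at 115.8 ± 3.72 FPKM in Nrp-1+ cells against 108.8 ± 1.2 FPKM (SD, n = 4 each; log2 fold change 0.09, adjusted p = 0.0245 by limma), a call that was lost without replicate 2 of Nrp-1+ cells (adjusted p = 0.0585) and without replicate 2 (0.0534) or 3 (0.0644) of Nrp-1- cells. Il2ra, the high-affinity IL-2 receptor chain, was at 265.5 against 227.9 FPKM (log2 fold change 0.22, adjusted p = 0.000108 by limma), and Ikzf2 (Helios) at 2.56 against 1.86 FPKM (0.31, adjusted p = 0.000853). Ctla4, an inhibitory receptor of Treg, went the other way, at 143.6 against 160.0 FPKM (log2 fold change -0.16, adjusted p = 0.000938 by limma). Cd3e (221.9 against 235.4 FPKM, adjusted p = 0.122) and Cd4 (315.0 against 325.1 FPKM, adjusted p = 0.255) did not pass the test, so that of the 6 T cell and Treg markers 3 were higher and 1 lower.

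**Figure D2:**
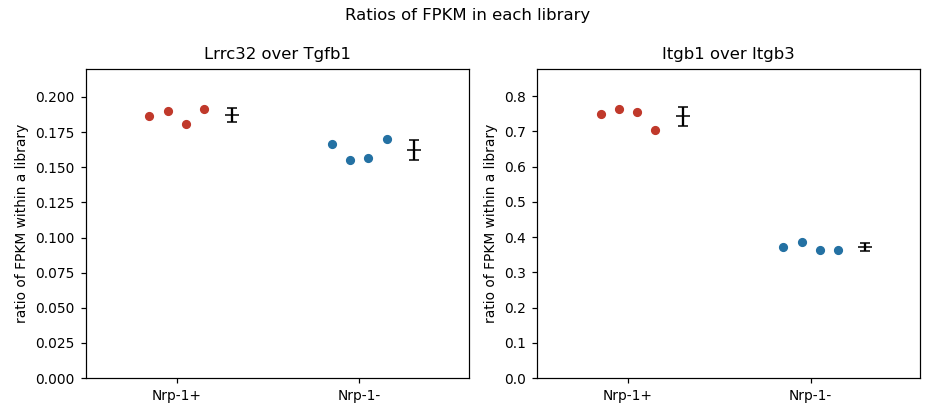
Ratio of FPKM within each of the 4 Nrp-1+ (red) and 4 Nrp-1- (blue) libraries for Lrrc32 over Tgfb1 (left) and for Itgb1 over Itgb3 (right), with the mean and SD in black; the axes start at 0. In both panels every Nrp-1+ library lies above every Nrp-1- library.

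Over the 8 libraries the log2 levels of Tgfb1 and Lrrc32 correlated at a Pearson r of 0.91, whereas Lrrc32 and Itgav gave 0.11 and Lrrc32 and Furin 0.38. The tested genes most like Tgfb1 were Wbp1 (r = 0.99), Bcam (0.98) and Inpp5b (0.98), and those most like Lrrc32 were Cpne2 (1.00), Pask (0.99) and Ehd4 (0.99). These r values describe 8 libraries in 2 groups and include the difference between the groups.

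Ltbp3, whose product tethers latent TGF-β to the matrix, was almost absent. It was at 0.00978, 0.0487, 0.0723 and 0.0689 FPKM in Nrp-1+ cells and at 0.0712, 0.14, 0.0845 and 0.061 FPKM in Nrp-1- cells. The steps of these values correspond to 22 fragments in the 4 Nrp-1+ libraries and 37 in the 4 Nrp-1- libraries, with 1 to 9 and 6 to 15 per library. The groups overlapped (adjusted p = 0.234 by limma over all genes above 0; exact permutation p = 0.143). Antisense exons of predicted genes in GENCODE overlap exons of Itgav (634 bases), Furin (118), Thbs1 (208), Tgfb2 (124) and Tgfb3 (163 and 257), and none overlap Tgfb1, Lrrc32 or Itgb8. The strand setting of the counting is not stated, so fragments in these overlaps cannot be assigned to either gene.

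Neither the integrin chain nor the protease above the filter passed the test. Itgav, the αv chain, was at 8.641, 8.586, 9.001 and 8.764 FPKM in Nrp-1+ cells and at 9.115, 8.611, 8.610 and 8.496 FPKM in Nrp-1- cells. Both the highest and the lowest of the 8 values lay in Nrp-1- cells. The log2 fold change was 0.0062 with a 95% interval of -0.06 to 0.08 (adjusted p = 0.891 by limma), so that a change beyond -4.35% or 5.45% on this scale lay outside the interval. The sign turned with quantile normalization and with the correction for GC content and length.

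Furin was at 30.1, 29.5, 30.9 and 30.5 FPKM in Nrp-1+ cells and at 30.1, 28.9, 30.5 and 28.9 FPKM in Nrp-1- cells. The groups overlapped, and the means were 30.2 ± 0.574 and 29.6 ± 0.82 FPKM (SD, n = 4 each). The log2 fold change was 0.03, with a 95% interval of -0.03 to 0.09 (adjusted p = 0.386 by limma). Relative to Tgfb1, whose product it cleaves, Furin stood at a ratio of 0.186 ± 0.00359 in Nrp-1+ cells and 0.20 ± 0.0087 in Nrp-1- cells (SD, n = 4 each), and these ranges overlapped (exact permutation p = 0.0571).

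Itgb8, the β8 chain that pairs with αv to activate TGF-β on Treg, was at 0.0168, 0.0168, 0.0554 and 0.017 FPKM in Nrp-1+ cells and was listed at 0 in 3 Nrp-1- libraries and at 0.0161 FPKM in replicate 2. In steps of the smallest value these are 1, 1, 4 and 1 in Nrp-1+ cells, and a single step in Nrp-1- cells. The groups did not overlap in FPKM (exact permutation p = 0.0286), but a library of each group with 1 step differed only through its depth. The adjusted p was 0.176 by limma over all genes above 0. A step of Itgb8 was 2.63 times the size that the longest GENCODE transcript gives for 1 fragment, so 1 step need not be 1 fragment for this gene.

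Thbs1 was at 0.0523, 0.0347, 0.0787 and 0.0701 FPKM in Nrp-1+ cells and at 0.00705, 0.0166, 0.0537 and 0.00906 FPKM in Nrp-1- cells. These are 29 fragments against 9, with 4 to 11 per library against 1 to 5. Replicate 3 of Nrp-1- cells lay among the Nrp-1+ libraries, and the other 3 lay below them. The mean was 2.73 times as high in Nrp-1+ cells, with a change of 0.05 on the log2(FPKM + 1) scale (standard error 0.02, adjusted p = 0.0980 by limma over all genes above 0; exact permutation p = 0.0857). Without replicate 3 of Nrp-1- cells the ratio of means was 5.40 and the adjusted p 0.0323 by limma, so this library decided the call. With any other library left out the ratio lay between 2.23 and 3.10, a check chosen after seeing the data.

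**Figure D3:**
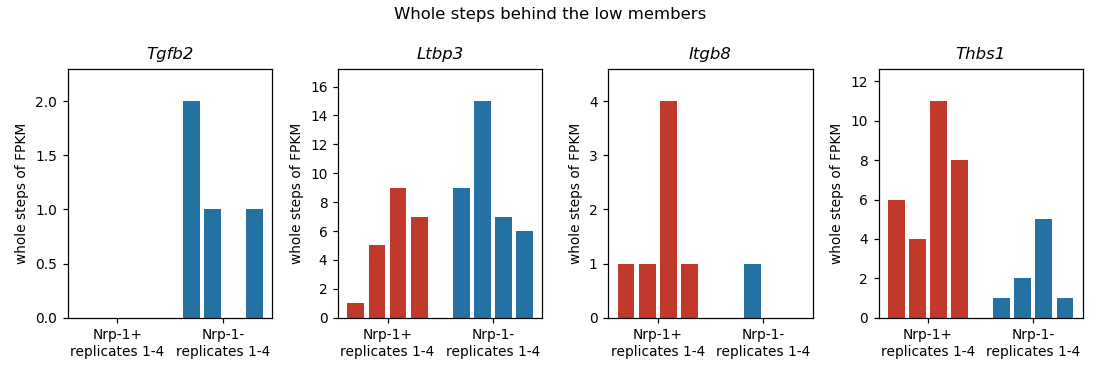
Number of whole steps behind the FPKM of 4 members in each library; red bars are the 4 Nrp-1+ and blue bars the 4 Nrp-1- libraries, in the order of replicates 1 to 4, and a missing bar is a 0. A step is close to the size expected for 1 fragment except for Itgb8, where it is 2.63 times as large. No library holds more than 15 steps of any of these genes, and Thbs1 has 29 against 9 in all.

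Platelets and fibroblasts are rich in Thbs1 and in other latent TGF-β genes. The platelet markers Pf4, Ppbp and Gp9 were listed at 0 in all 8 libraries, and the 5 platelet markers summed to 0.06 to 0.121 FPKM in Nrp-1+ cells and 0.0744 to 0.188 FPKM in Nrp-1- cells. The 4 fibroblast markers (Col1a1, Col1a2, Col3a1, Pdgfra) were all under 1 FPKM on average and summed to 0.159 to 1.69 FPKM in Nrp-1+ cells and 0.494 to 2.56 FPKM in Nrp-1- cells, with overlapping groups. The B cell markers Ms4a1 and Pax5 were at 0 in all libraries. Of the erythroid markers, Hba-a1, a globin gene with a near-identical copy, was at 6.10 against 2.52 FPKM (log2 fold change 1.02, adjusted p = 0.000510 by limma). Hbb-bs, listed as Beta-s, was at 0 against 0.0225 FPKM and Alas2 at 0.0281 against 0.0492 FPKM, both near 0 in both groups. Of the other lists, the CD8 T cell markers summed to 7.10 to 8.78 against 9.33 to 11.3 FPKM (Cd8b1, with Cd8a near 0). The NK cell markers summed to 2.89 to 3.64 against 3.62 to 4.70 FPKM. The NK sum was nearly all Prf1, with Ncr1 and Klrb1c near 0 in both groups. The myeloid cell markers summed to 6.69 to 7.60 against 5.95 to 6.76 FPKM. The myeloid sum was nearly all Itgam, with Fcgr3 at 0.286 against 0.605, Lyz2 at 0.0569 against 0.132 and Csf1r at 0 against 0.0198 FPKM. The dendritic cell markers summed to 0.0803 to 0.148 against 0.0589 to 0.148 FPKM. The part of these cells in the levels of the members was not tested.

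In order of level, Tgfb1 came first in both groups. In Nrp-1+ cells Lrrc32 and Furin followed with overlapping ranges, then Itgav, then Tgfb3. Below Tgfb3, and with no overlap with it, came Thbs1, Ltbp3 and Itgb8. Ltbp3 overlapped with both Thbs1 and Itgb8, and Tgfb2 was last at 0 FPKM. In Nrp-1- cells Furin stood above Lrrc32 with no overlap, and Ltbp3 above Thbs1, also with no overlap. Lrrc32 and Furin were thus level in one subset and apart in the other, with Furin at 28.9 to 30.5 FPKM and Lrrc32 at 23.1 to 24.7 FPKM in Nrp-1- cells. Within a group the coefficient of variation was 1.51% and 3.04% for Tgfb1, 3.52% and 2.94% for Lrrc32, 1.9% and 2.77% for Furin and 2.11% and 3.18% for Itgav (Nrp-1+ cells first). Counting of fragments alone gives about 1.1%, 2%, 1.7% and 2.9% for these genes, by approximate fragment numbers from transcript length.

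The other genes of latent TGF-β handling were described from lists chosen by function. Each count of called list genes stands against 20.9% higher and 20.0% lower among all 10467 tested genes, and no list was tested as a set. Of 11 partners of the latent complex, 5 passed the filter, of which 2 were higher and 0 lower. Hsp90b1, the chaperone gp96 that GARP and integrins need for folding, was at 173.7 ± 4.13 against 136.7 ± 2.71 FPKM (SD, n = 4 each), an increase of 27.1% (log2 fold change 0.34 with a standard error of 0.02, adjusted p = 1.54e-05 by limma). Emilin1, a matrix glycoprotein, was at 8.08 against 7.07 FPKM (log2 fold change 0.17, adjusted p = 0.0255), a call lost without replicate 1 (adjusted p = 0.0595) or 2 (0.0627) of Nrp-1+ cells and without replicate 1 (0.0552), 3 (0.0655) or 4 (0.0528) of Nrp-1- cells. Nrros, listed in the table under its older symbol Lrrc33, is the anchor of latent TGF-β on myeloid cells and was expressed at 21.2 ± 0.988 against 22.4 ± 0.815 FPKM (log2 fold change -0.08, adjusted p = 0.143). The anchor genes thus differed: in Nrp-1- cells the level of Lrrc33 lay near that of Lrrc32, and in Nrp-1+ cells below it. Cnpy3, a co-chaperone, was at 14.5 against 14.6 FPKM (adjusted p = 0.818).

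Among the list genes under the filter, Ltbp4, a further LTBP, was at 0.398, 0.495, 0.433 and 0.471 FPKM in Nrp-1+ cells and at 0.24, 0.18, 0.201 and 0.0829 FPKM in Nrp-1- cells. Its groups did not overlap (change of 0.30 on the log2(FPKM + 1) scale, adjusted p = 0.00175 by limma over all genes above 0). Ltbp4 was named after its values were seen.

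The β chains that can pair with αv were unevenly expressed, and the most abundant of them moved in opposite directions. They were named as partners of Itgav after their values were seen. Itgb1 was at 38.3, 38.1, 38.8 and 37.8 FPKM in Nrp-1+ cells and at 23.2, 22.7, 22.7 and 22.2 FPKM in Nrp-1- cells, an increase of 68.5% (log2 fold change 0.73 with a standard error of 0.02, adjusted p = 2.33e-07 by limma). Itgb3 was at 51.1, 49.9, 51.4 and 53.7 FPKM in Nrp-1+ cells and at 62.5, 58.6, 62.7 and 60.8 FPKM in Nrp-1- cells, a change of -15.7% (log2 fold change -0.24 with a standard error of 0.03, adjusted p = 0.000468). Neither gene overlapped between the groups. The ratio of Itgb1 to Itgb3 was 0.743 ± 0.0271 in Nrp-1+ cells, with a range of 0.703 to 0.764, and 0.371 ± 0.0112 in Nrp-1- cells, with a range of 0.362 to 0.387 (SD, n = 4 each).

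Itgb5 was at 0.751 to 1.02 FPKM and 0.755 to 0.821 FPKM, and Itgb6 was listed at 0 in 7 of 8 libraries. Both β1 and β3 also pair with other α chains, so these levels do not give the amount of αv heterodimers. With Itgav at 8.75 against 8.71 FPKM, Itgb3 stood at 5.89 times Itgav in Nrp-1+ cells and 7.02 times in Nrp-1- cells, and Itgb1 at 4.37 and 2.61 times. Of all 10 genes in the list of αv partners and integrin activators, 7 were tested, 1 was higher and 4 were lower. Among all tested genes 20.9% were higher and 20.0% lower. The activators Apbb1ip (RIAM; 69.2 against 79.2 FPKM, log2 fold change -0.19, adjusted p = 0.00276), Rap1b (373.3 against 409.5 FPKM, -0.13, adjusted p = 0.00799) and Fermt3 (kindlin-3; 146.3 against 155.4 FPKM, -0.09, adjusted p = 0.0141 by limma) fell, of which Rap1b (-0.13, adjusted p = 0.262) and Fermt3 (-0.10, 0.111) did not pass after quantile normalization, with similar fold changes and larger standard errors. Tln1 (talin; 99.7 against 101.9 FPKM) and Rap1a (169.7 against 174.7 FPKM) did not pass the test.

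**Figure D4:**
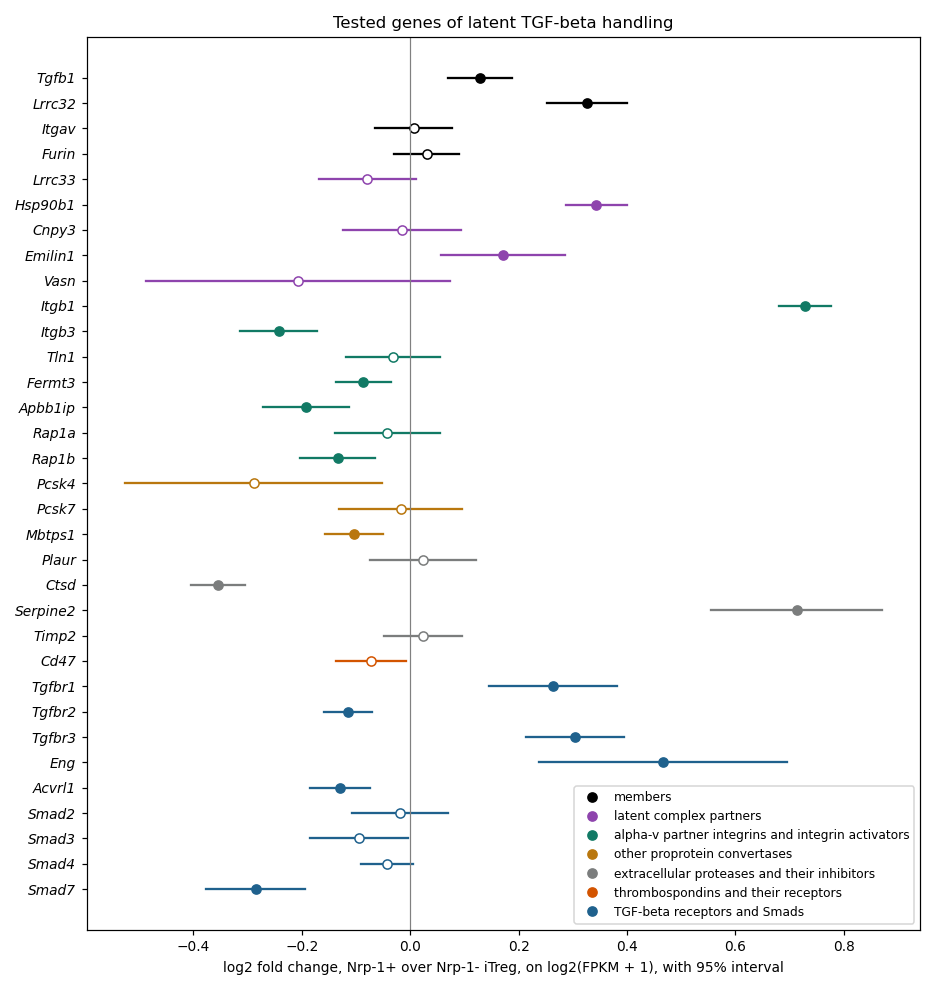
Log2 fold change of Nrp-1+ over Nrp-1- cells on log2(FPKM + 1), with 95% intervals, for the 4 tested members and the tested genes of 6 functional lists; filled points have an adjusted p under 0.05 by limma and open points do not. Lrrc32 and Hsp90b1 lie near 0.33, Itgb1 at 0.73, and the intervals of Itgav and Furin include 0.

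Of 8 other proprotein convertases, 3 were tested, of which 0 were higher and 1 lower. Mbtps1, the site-1 protease, was at 37.1 against 40.0 FPKM (log2 fold change -0.10, adjusted p = 0.00800 by limma). Pcsk7, a close relative of Furin, was at 11.4 against 11.6 FPKM (adjusted p = 0.802), and Pcsk4 at 0.924 against 1.34 FPKM (adjusted p = 0.0547, and 0.0408 without replicate 3 of Nrp-1+ cells). Pcsk5 and Pcsk6, convertases that can also process growth factors, were listed at 0 in all 4 Nrp-1+ libraries and in 2 (Pcsk5) and 3 (Pcsk6) of the 4 Nrp-1- libraries, where they reached at most 0.0182 and 0.0147 FPKM. Furin was the most abundant of these convertases after Mbtps1.

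Of 15 extracellular proteases and inhibitors, 4 were tested, of which 1 was higher and 1 lower. Serpine2, an inhibitor of thrombin and plasminogen activators, was at 9.31, 11.03, 10.55 and 10.96 FPKM in Nrp-1+ cells and at 5.32, 5.95, 6.59 and 6.11 FPKM in Nrp-1- cells, an increase of 74.6% (log2 fold change 0.71 with a standard error of 0.07, adjusted p = 9.15e-05 by limma). Ctsd, cathepsin D, was at 204.8 against 262.2 FPKM (log2 fold change -0.35, adjusted p = 6.2e-06). Plaur, the urokinase receptor, was at 17.8 against 17.5 FPKM (adjusted p = 0.686), and Timp2 at 12.3 against 12.1 FPKM (adjusted p = 0.582). Plg, Mmp2, Mmp3, Mmp9, Mmp13 and Mmp14 were all under a mean of 1 FPKM.

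Under the filter, Bmp1, whose protease cleaves LTBP1, was at 0.233 to 0.324 FPKM in Nrp-1+ cells and 0.102 to 0.144 FPKM in Nrp-1- cells (adjusted p = 0.00117 by limma over all genes above 0). Plau, the urokinase, was at 0.0911 to 0.249 FPKM and 0 to 0.0562 FPKM, with 2 Nrp-1- libraries listed at 0 (adjusted p = 0.0203). Bmp1 and Plau were named after their values were seen, and the call of Plau was lost without replicate 3 of Nrp-1+ cells (adjusted p = 0.0554 by limma) and without replicate 2 (0.0540) or 4 (0.0539) of Nrp-1- cells.

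Of 6 thrombospondins and receptors, Cd47 was the only tested gene, at 240.5 ± 8.82 against 252.7 ± 2.39 FPKM (SD, n = 4 each; log2 fold change -0.07, adjusted p = 0.0740 by limma). Cd36, another receptor of Thbs1, had a mean of 0.00381 FPKM in Nrp-1+ cells and 0.00941 FPKM in Nrp-1- cells. Of 17 other ligands of the TGF-β superfamily, 2 were tested and 0 were called: Gdf11, at 4.24 against 3.85 FPKM, and Bmp7, at 2.89 against 2.80 FPKM. Inhbb, Gdf10, Gdf15, Mstn and Lefty2 were listed at 0 in all 8 libraries.

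All 9 receptor and Smad genes were tested, with 3 higher, 3 lower and a median log2 fold change of -0.04, against a median of -0.02 over all tested genes. The lower ones were Tgfbr2, the ligand-binding receptor (85.4 against 92.6 FPKM, log2 fold change -0.11, adjusted p = 0.00211 by limma), Acvrl1 (38.4 against 42.1 FPKM, -0.13, adjusted p = 0.00357) and the inhibitory Smad7 (29.3 against 35.9 FPKM, -0.28, adjusted p = 0.000759). The higher ones were Tgfbr1, the signalling receptor (18.7 against 15.4 FPKM, 0.26, adjusted p = 0.00423), and the co-receptors Tgfbr3 (8.81 against 6.94 FPKM, 0.30, adjusted p = 0.000504) and Eng (2.19 against 1.30 FPKM, 0.47, adjusted p = 0.00656 by limma). Smad2 (8.39 against 8.52 FPKM), Smad3 (17.5 against 18.8 FPKM, adjusted p = 0.0876) and Smad4 (41.9 against 43.3 FPKM) did not pass the test, although Smad3 did without replicate 2 of Nrp-1- cells (adjusted p = 0.0199 by limma). Tgfbr1, Tgfbr3 and Eng were named after their values were seen.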

How the data were processed

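RNA-seq of 8 iTreg libraries (4 per group) was analysed; nTreg samples were not analysed here. The authors deposited FPKM values per gene symbol. Build GRCm38 (mm10) comes from the submitters' processing notes, and the strand setting and gene annotation are not given in the sources used here. The labels and the methods of the study differ on the library kit and the day of the sort. They give the IL-2 dose in different units (U/ml and ng/ml), so the doses were not compared. Values were tested as log2(FPKM + 1) for genes with a mean of at least 1 FPKM, with limma 3.58.1 (R 4.3.3) and Benjamini-Hochberg adjustment; genes under the filter were tested in a fit of all genes above 0. Single values and ratios had exact two-sided permutation tests (scipy 1.17.1). The fits were tested on simulated data. Fragment numbers were read from whole steps between low FPKM values, with a tolerance of 2%, or approximated from transcript length, and cover counting error only. Genes listed under older symbols were matched through a RefSeq table of GRCm38.p6. The members and gene lists were chosen with earlier results of these data known. From each pathway list up to 3 genes that passed and up to 2 tested genes that did not were named, by highest mean FPKM, with the 3 genes most correlated with Tgfb1 and with Lrrc32 and the markers; any other list gene was named after its values were seen. Alternatives changed the pseudocount, filter, normalization, GC and length correction, replicate block and each library.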

Additional observations from a re-analysis of the deposited data

Results flagged for a closer look

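In groups of 4 libraries, a value that stood far from the other 3 was looked for in 89 groups, of which chance alone would give about 4.45. That rate is for continuous values and does not apply to values in whole steps, such as those of Itgb8. Replicate 4 of Nrp-1+ cells had a Tgfb1 level of 165.9 FPKM, and the other 3 lay between 160.8 and 161.5 FPKM. Replicate 3 of Nrp-1+ cells had 0.0554 FPKM of Itgb8, against 0.0168 to 0.017 FPKM in the others, which is 4 steps of the smallest value against 1 each. Replicate 2 of Nrp-1- cells had 0.0161 FPKM of Itgb8, a single step, and the others were listed at 0.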

How the results depend on the processing

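Lrrc32 kept its call under every alternative with a test. Of the members, 2 were higher in the main analysis and 1 with quantile normalization, where Tgfb1 had a log2 fold change of 0.12 (adjusted p = 0.0620 by limma), and 1 with the replicate block and GC and length correction together (0.10, adjusted p = 0.0723). With each library left out in turn, Tgfb1 ranged from 0.11 to 0.15, with adjusted p from 0.00238 to 0.0159. Itgav turned to -0.026 with quantile normalization and to -0.021 with GC and length correction, with or without the block, and ranged from -0.0062 to 0.026 with a library left out. The same ranges were -0.052 to 0.015 for Cnpy3, -0.048 to 0.010 for Pcsk7 and -0.0089 to 0.059 for Plaur; leaving out libraries for list genes was chosen after seeing the data. Thbs1 passed only without replicate 3 of Nrp-1- cells (adjusted p = 0.0323). After quantile normalization Emilin1 (log2 fold change 0.14, adjusted p = 0.0614 by limma), Rap1b (-0.13, 0.262), Fermt3 (-0.10, 0.111) and Foxp3 (0.08, 0.0992) kept their direction with larger standard errors (for Rap1b 0.09 in place of 0.03) and did not pass, and Smad3 did (0.0433). GC and length correction gave 1838 higher and 2756 lower genes in place of 2189 and 2093.

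Same-numbered libraries did not deviate together over all tested genes (r = -0.54, -0.02, 0.01 and -0.50). Without short RNA genes r was -0.038, -0.065, -0.080 and -0.108. The numbers were therefore not taken as pairs. With the replicate block 1931 genes were higher and 1675 lower, 2 members were higher and 0 lower, and of the pathway lists 13 were higher and 8 lower; Fermt3 (adjusted p = 0.0579) and Plau (0.0530) were past the threshold no longer. Members under 3 fragments per library allow no statement on a difference at this depth.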
